A study of Homo sapiens with 18 samples.

Results

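BJ is a human skin fibroblast line, and the series holds 18 libraries of it in 6 groups of 3. The 6 libraries compared here are 3 of BJ cells named PURPL#2-OE (hereafter OE2) and 3 of BJ cells named PURPL#1-OE (hereafter OE1). They were taken by the group names of their columns in the overexpression table, and all 15267 genes with enough counts were compared. The 3 libraries named Ctrl in that table are the control for both, and the other 9 libraries come from a CRISPR interference knockdown of PURPL with 2 guides (sgRNA-PURPL#1 and sgRNA-PURPL#2) and its own control, sgCtrl. No treatment, time or age is given for any group. The design text speaks of overexpressing and control cell lines. It does not say whether OE1 and OE2 differ by construct, by transcript isoform, by vector dose or by clone, so a difference between them cannot be told apart from a difference of any of these. The 3 columns of OE1 and 2 of those of OE2 carry no replicate number and are called library a, b and c of their group, in the order of the table; the last is replicate 3 of OE2. Nothing says that replicates were separate cultures, so p-values measure the spread between these libraries, which may be technical.

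PURPL is a long noncoding RNA that p53 switches on, and it is known for holding back p53 protein in unstressed cells. p53 is a transcription factor that halts the cell cycle after DNA damage, and in skin fibroblasts a lasting arrest, senescence, comes with a secreted mixture of cytokines, growth factors and proteases. Fibroblasts also make and contract the matrix of the skin under control of TGF-beta, answer interferon with antiviral proteins, and answer interleukin 1 through NF-kB. The gene lists below follow these programmes.

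PURPL itself (chr5:27217714-27496994, plus strand, hg38 as the submitters' processing notes name it) was measured at 166, 178 and 176 CPM in OE1, 125, 129 and 114 in OE2 and 67.3, 66.7 and 59.2 in Ctrl, where CPM are read counts scaled to a common library size and composition. All 6 overexpression libraries were above all 3 Ctrl libraries, and OE1 was above OE2 without overlap. PURPL was 1.41-fold lower in OE2 than in OE1 (log2 difference of -0.50 ± 0.0571, adjusted p = 1.81e-07, where ± gives the standard error throughout, edgeR quasi-likelihood test with Benjamini-Hochberg adjustment over all genes tested). Against Ctrl its log2 difference was 1.43 in OE1 and 0.93 in OE2, so OE2 stood at 0.65 of the log2 rise of OE1. The count is of the whole gene, so which transcripts were overexpressed is not measured.

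The 6 libraries held 18858976 to 27985649 counts, with mitochondrially encoded transcripts at 4.97% to 6.24% of counts in OE1 and 5.37% to 5.9% in OE2. Correlations of log2(CPM + 1) were 0.9959 to 0.9972 within a group and 0.9932 to 0.9948 between the 2 groups, and no pair of libraries agreed within sampling noise. Within OE1, library a differed from b and c by a chi-square per gene of 7.298 and 6.996, against 3.601 between b and c, and within OE2 library b differed from replicate 3 by 8.54, against 5.252 and 5.324 for the other two pairs. The defining fibroblast genes COL1A1, COL3A1, DCN and LUM were high in all 9 libraries, and the keratinocyte genes KRT5 and KRT1 had no count. Libraries a and b of OE2 stood apart in 1 respect: transcripts rich in G and C had higher counts there. With tested genes cut into 5 equal classes by transcript GC content, between the richest and the poorest class the median log2 deviation differed by 0.132 and 0.157 in these 2 libraries, by -0.0583 in replicate 3 of OE2, by -0.0578 to -0.0307 in OE1 and by -0.0538 to 0.0457 in Ctrl. The calls moved with it, since 219 genes of the GC-richest class were higher in OE2 and 60 lower, against 108 higher and 305 lower in the GC-poorest class. With each library corrected for its GC trend, an alternative added after seeing the data, these counts were 106 and 112 in the GC-richest class and 187 and 209 in the GC-poorest. Among named genes the correction ended the calls of ADM, CENPE, NFKB2, TWIST1 and UHRF1, among others, and made 1 for TIMP2. Of the 166 named genes, 42 overlap another gene on their strand and may share its reads; besides those marked below, C3, MYO5C, RIPOR3, GRIA1, SOD2, MCM7, RPS9, UHRF1, PFKFB3, SLC2A1, KCNQ5, TEK, PECAM1, CALR, HSPA8, CMBL and H2BC5 are among them.

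**Figure D1:**
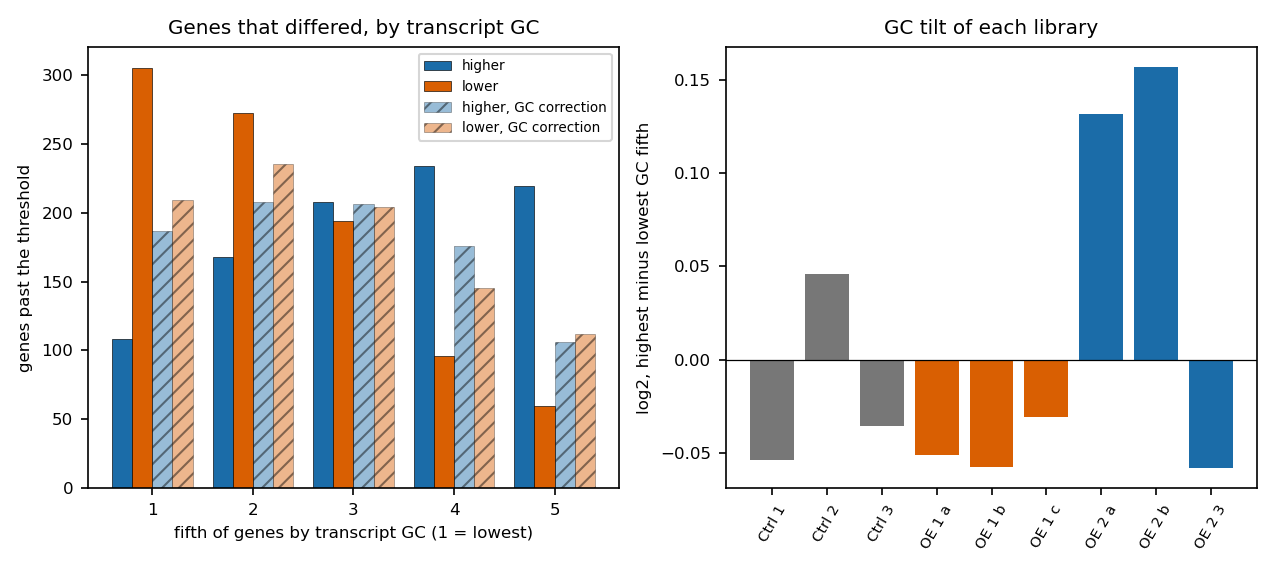
Left, genes past the threshold in 5 equal classes of tested genes by transcript GC content (counts of genes), higher or lower in OE2, without and with (hatched) the GC correction. Right, the median log2 deviation of the GC-richest class minus that of the GC-poorest in each library: libraries a and b of OE2 sit at 0.132 and 0.157, and the other 7 libraries between -0.0583 and 0.0457.

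Between the 2 overexpression groups 1888 of 15267 genes (12.4%) passed an adjusted p of 0.05, and the 2 directions were nearly equal in number: 943 were higher in OE2 (6.18%) and 945 were lower (6.19%). Most differences were under 1.5-fold. Of the 1888, 1289 differed by at least 1.2-fold, 448 by at least 1.5-fold, 181 by at least 2-fold and 61 by at least 3-fold. The background of differences from Ctrl was larger, with 6047 genes (39.6%) past the threshold in OE1 and 5878 (38.5%) in OE2; these 2 comparisons share the Ctrl libraries and are given only to place each gene. With the GC correction 1813 genes passed, of which 1572 were among the 1888, and with replicate 3 of OE2 alone against the 3 libraries of OE1 it was 753, of which 678 were. That last fit was also chosen after seeing the data, leaves out libraries a and b of OE2 and assumes that the lone library varies like the others. Leaving out library a of OE1 left 600 genes higher in OE2.

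**Figure D2:**
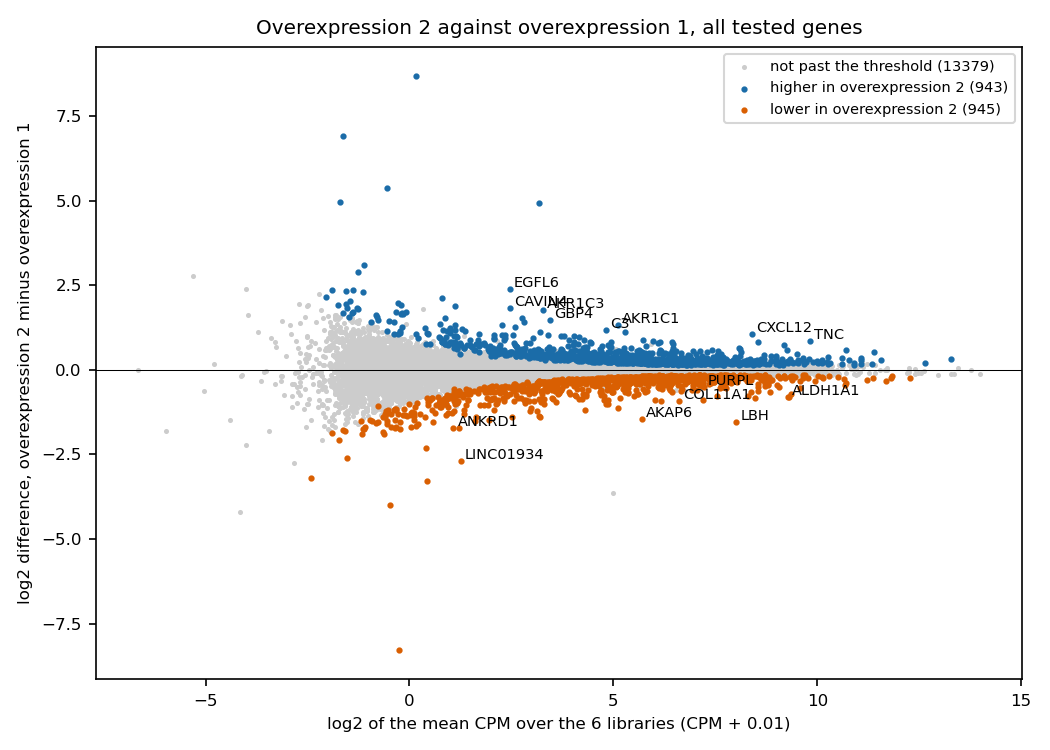
Each point is 1 of 15267 tested genes: horizontal axis, log2 of the mean CPM over the 6 libraries; vertical axis, log2 difference of OE2 minus OE1. The 943 genes higher in OE2 (blue) and the 945 lower (orange) lie on both sides of 0 at middle and high levels, and PURPL is among the lower; few genes of the lowest levels passed.

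Among genes lower in OE2, LBH had the smallest p. LBH, a transcription cofactor of limb and heart development, was measured at 382, 388 and 381 CPM in OE1, 133, 134 and 131 in OE2 and 86.3, 83.8 and 91.2 in Ctrl. The 3 groups did not overlap, and OE2 lay between Ctrl and OE1, nearer to Ctrl. LBH was 2.89-fold lower in OE2 (log2 difference of -1.53 ± 0.0501, adjusted p = 2.22e-19). ANKRD1, a target of the mechanosensitive cofactor YAP, was at 3.65, 3.37 and 2.61 CPM in OE1, 0.746, 1.62 and 0.574 in OE2 and 5.42, 4.77 and 5.37 in Ctrl, lower in OE2 than in either other group (log2 difference of -1.72 ± 0.256, adjusted p = 1.78e-05). HAPLN1, which links hyaluronan to proteoglycans, was at 5.76, 5.08 and 6.25 CPM in OE1, 1.87, 2.36 and 1.84 in OE2 and 6.51, 6.29 and 4.80 in Ctrl. HAPLN1 had a log2 difference of -1.49 ± 0.173, adjusted p = 2.16e-07, with OE1 overlapping Ctrl and OE2 alone low. The chemokine receptor gene CX3CR1 and the cell surface proteoglycan gene GPC4 were raised over Ctrl most in OE1: CX3CR1 at 3.83, 3.96 and 2.89 CPM against 1.17, 0.833 and 1.23 in OE2, and GPC4 at 4.29, 3.87 and 5.10 against 2.13, 1.57 and 1.43. TMC1, a channel protein of hair cells, followed the same order, at 13.4, 13.4 and 12.3 CPM in OE1, 5.60, 3.84 and 5.74 in OE2 and 2.96, 2.38 and 1.91 in Ctrl. TMC1 had a log2 difference of -1.37 ± 0.139, adjusted p = 2.26e-08. INA, a neuronal intermediate filament, was at 13.8, 13.4 and 12.9 CPM in OE1, 5.86, 4.03 and 5.53 in OE2 and 11.1, 10.98 and 10.4 in Ctrl, above Ctrl in OE1 and below it in OE2 (log2 difference of -1.38 ± 0.121, adjusted p = 1.22e-09). The noncoding RNA LINC01934 had the largest difference of this group (log2 difference of -2.70 ± 0.238, adjusted p = 1.44e-09), at 4.36, 4.09 and 3.96 CPM in OE1 and 0.586, 0.602 and 0.697 in OE2, close to Ctrl at 0.779, 0.899 and 0.671. AKAP6, which anchors protein kinase A, was at 73.3, 76.3 and 79.8 CPM in OE1 and 27.2, 27.2 and 28.6 in OE2 (log2 difference of -1.47 ± 0.0651, adjusted p = 3.65e-16). APOL1, an interferon-induced apolipoprotein, was at 9.16, 7.15 and 8.47 CPM in OE1, 2.45, 3.24 and 3.65 in OE2 and 33.8, 31.8 and 32.7 in Ctrl, far below Ctrl in both groups and lowest in OE2 (log2 difference of -1.39 ± 0.134, adjusted p = 7.35e-09). LINC01934, AKAP6, HOXD3 and OVCH2 overlap another gene on their strand, and their counts are uncertain for that reason.

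Among genes with a symbol that were higher in OE2, CXCL12 had the smallest p. CXCL12, a chemokine that fibroblasts secrete to hold and attract CXCR4-bearing cells, was at 218, 224 and 211 CPM in OE1, 464, 432 and 461 in OE2 and 178, 166 and 197 in Ctrl. OE2 was above both other groups by more than their whole spread, and CXCL12 was 2.08-fold higher than in OE1 (log2 difference of 1.06 ± 0.0565, adjusted p = 4.34e-14). TNC, the matrix glycoprotein tenascin C, was at 622, 648 and 659 CPM in OE1, 1160.0, 1230.5 and 1070.5 in OE2 and 1061, 1105 and 1034 in Ctrl. TNC had a log2 difference of 0.84 ± 0.0544, adjusted p = 2.21e-12. OE1 was the group that stood apart for TNC, and OE2 reached the level of Ctrl. IL1R1, the signalling receptor of interleukin 1, was at 269, 274 and 262 CPM in OE1, 462, 484 and 482 in OE2 and 319, 319 and 338 in Ctrl, higher than Ctrl in OE2 and lower in OE1 (log2 difference of 0.83 ± 0.0496, adjusted p = 4.67e-13). EGFL6, a secreted protein with EGF repeats, was at 1.93, 1.89 and 1.503 CPM in OE1, 7.62, 10.3 and 9.71 in OE2 and 0.935, 1.33 and 2.01 in Ctrl. EGFL6 had a log2 difference of 2.38 ± 0.188, adjusted p = 2.01e-10, and its span overlaps another gene of its strand. CAVIN4, a caveola protein of muscle, was at 2.65, 2.47 and 2.14 CPM in OE1 and 8.90, 8.47 and 8.69 in OE2 (log2 difference of 1.84 ± 0.146, adjusted p = 1.57e-10). For both, OE2 alone was high, and OE1 did not pass the test against Ctrl. ADAM22, ABCA4, TSPAN11 and MYO5C, at log2 differences of 1.53, 1.32, 1.27 and 1.33, were highest in OE2 too. In the complement gene C3 and in GBP4, an interferon-induced GTPase, both groups were far below Ctrl and OE2 less so. C3 was at 17.5, 17.8 and 16.6 CPM in OE1, 39.8, 43.5 and 35.0 in OE2 and 175, 188 and 187 in Ctrl. C3 had a log2 difference of 1.19 ± 0.0736, adjusted p = 1.21e-12. GBP4 was at 5.76, 5.53 and 5.97 CPM in OE1, 16.1, 17.7 and 14.7 in OE2 and 54.2, 50.6 and 51.7 in Ctrl. GBP4 had a log2 difference of 1.49 ± 0.0968, adjusted p = 2.54e-12. In RIPOR3 and IGSF10 OE1 alone was low, and OE2 did not pass the test against Ctrl. Their levels were 10.7, 10.4 and 9.38 and 2.56, 4.03 and 2.42 CPM in OE2 against 4.22, 3.06 and 3.996 and 1.54, 1.48 and 0.949 in OE1.

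**Figure D3:**
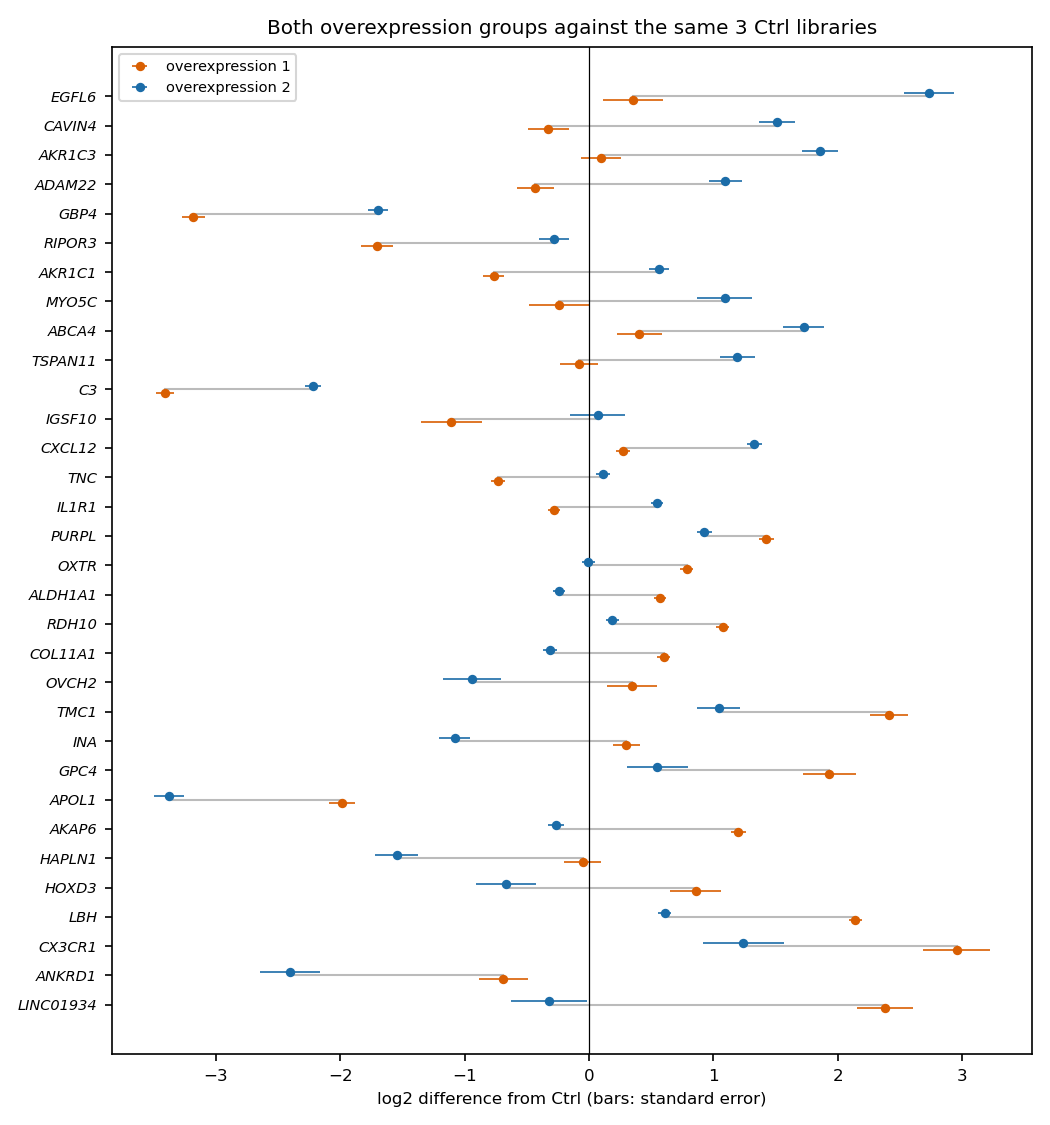
Log2 difference from Ctrl (horizontal axis, bars: standard error) of PURPL and the genes with the largest or most significant differences between the groups, ordered by that difference; both differences use the same 3 Ctrl libraries. PURPL, LBH, GPC4 and TMC1 are above Ctrl in both groups and farther in OE1 (orange), C3 and GBP4 are below Ctrl in both and farther in OE1, and CXCL12 and EGFL6 are farther in OE2 (blue).

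**Figure D4:**
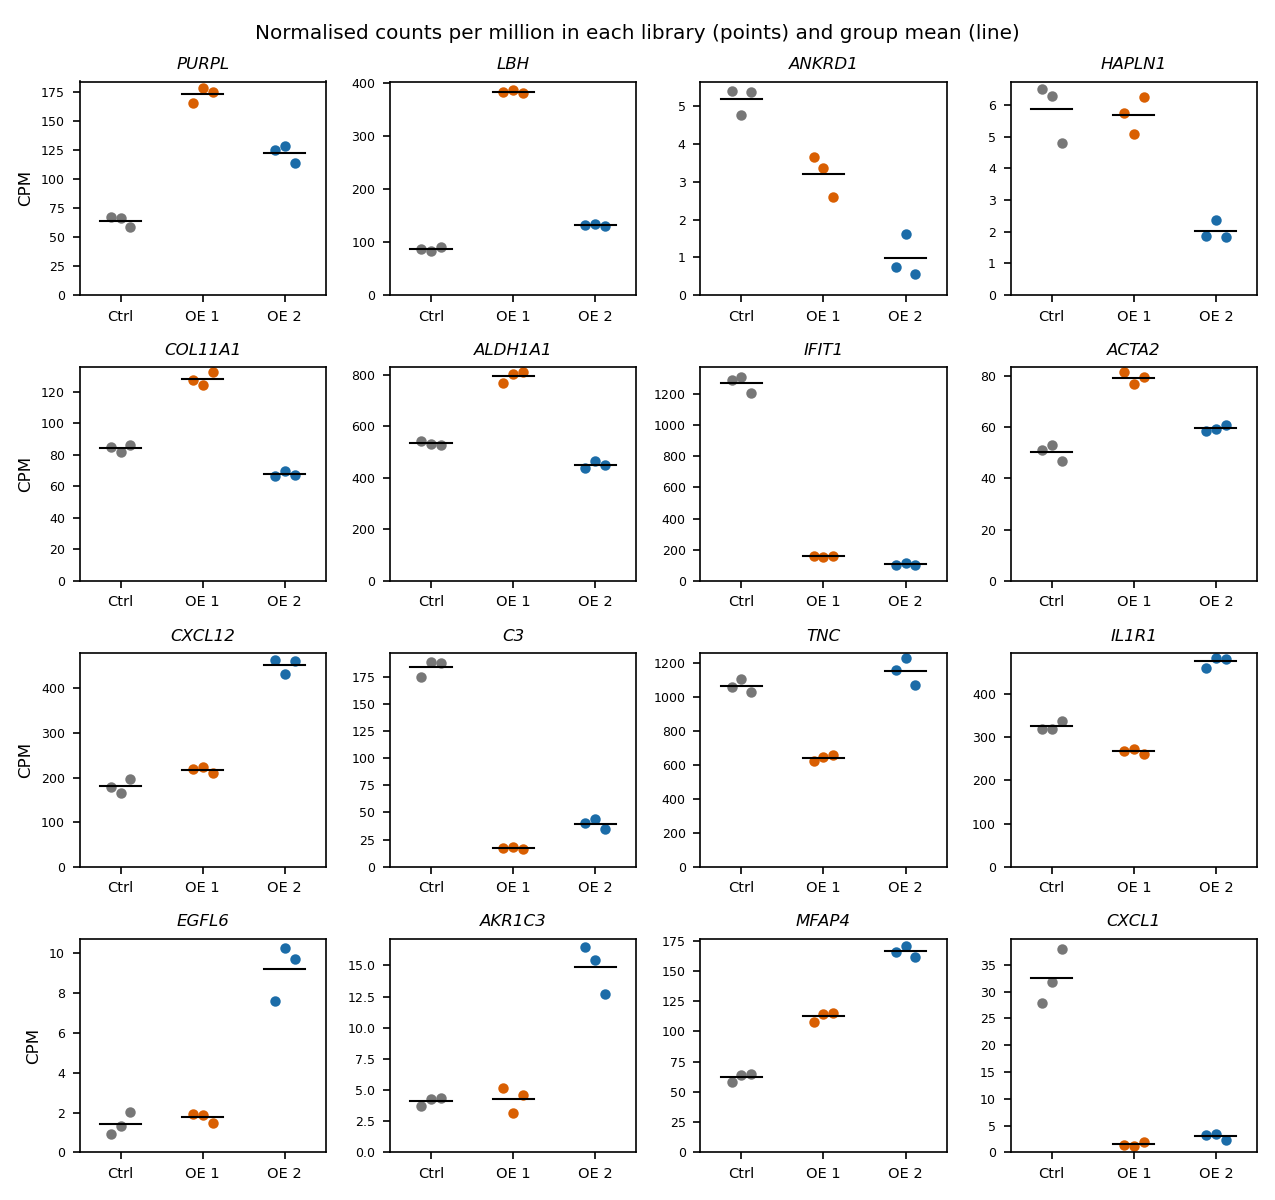
CPM in each of the 9 libraries (points) with the group mean (line), for 16 genes; vertical axes start at 0 and differ between panels. LBH, COL11A1 and ALDH1A1 are highest in OE1, CXCL12, EGFL6, AKR1C3 and MFAP4 in OE2, and IFIT1, C3 and CXCL1 are highest in Ctrl.

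Since PURPL was higher in OE1, the order of the 3 groups was set beside the PURPL level for each gene. With only these groups, which may differ in other ways, that order cannot show that a gene followed PURPL. Graded, as used below, names the order alone. Of the 1888 genes that differed, 689 (36.5%) were graded, with OE2 between Ctrl and OE1, against 40.9% of all tested genes. In 588 (31.1%, against 39.3% of all tested genes) OE2 was the farther from Ctrl, and in 611 (32.4%, against 19.8%) the group means lay on either side of Ctrl. Genes that passed were chosen for a gap between the 2 groups, and a wider gap is likelier to hold the Ctrl mean. The shares of all tested genes are therefore no like-for-like background, and the excess was not tested. All 3 counts fell with the total when a library of OE1 was left out. Without library a of OE1, 1259 genes passed, 472 graded, 416 on either side of Ctrl and 371 farther in OE2. Without library c of OE1, 1372 passed, 502 graded, 481 on either side and 389 farther. The order rests on group means alone; in 57 of the 1888 genes (3.02%) both groups also differed from Ctrl past the threshold in opposite directions, 26 of them higher than Ctrl in OE2 and 31 lower. These include IL1R1, AKR1C1 and ADAM22, higher in OE2, and ALDH1A1, COL11A1, INA and AKAP6, lower.

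A second measure asked whether the log2 difference from Ctrl in OE2 was 0.65 of that in OE1, the ratio shown by PURPL. It departed from that ratio in 2839 of 15266 genes (18.6%, PURPL left out since it sets the ratio), 1386 above (9.08%) and 1453 below (9.52%). With the ratio taken from linear CPM, 0.535, the count was 3540. A gene changed equally from Ctrl in both groups departs as well, so a departure need not be a difference between OE1 and OE2. The ratio comes from PURPL in the same libraries, and its own error was not carried into the test. The genes above the ratio with the smallest p were CXCL12, SLC6A6, MFAP4, A2M and GRIA1. SLC6A6, the taurine transporter, was at 441, 441 and 426 CPM in OE1, 719, 731 and 714 in OE2 and 281, 267 and 297 in Ctrl. MFAP4, a protein of elastic fibres, was at 108, 114 and 116 CPM in OE1, 166, 171 and 161 in OE2 and 58.5, 63.9 and 65.2 in Ctrl. GRIA1, a glutamate receptor subunit, was at 217, 222 and 215 CPM in OE1, 287, 275 and 294 in OE2 and 106, 102 and 96.4 in Ctrl. In all 3 OE2, with less PURPL, was the highest. The absence of overlap between the groups was a condition of the ranking and not a result. A2M, a broad protease inhibitor, was at 1001, 1006 and 1003 CPM in OE1, 1219, 1292 and 1168 in OE2 and 373, 382 and 367 in Ctrl. A2M had a log2 difference of 0.29 ± 0.0502, adjusted p = 1.28e-04, in the same order. The genes below it with the smallest p were the interferon-induced IFIT1, IFIT3, IFIT2, IFI6 and HERC6, described next.

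Interferon-response genes were far below Ctrl in both groups, with 30 of 30 members lower in OE1 and 30 lower in OE2, and the 2 groups differed little beside that fall. The summed level of the list was 2182 to 2221 CPM in OE1, 2036 to 2111 in OE2 and 14667 to 14998 in Ctrl. Between the overexpression groups, 5 of 30 tested members were higher in OE2 and 6 were lower (median log2 difference -0.021). Over all tested genes, 6.18% were higher and 6.19% lower. IFIT1, which binds viral RNA, was at 163, 156 and 162 CPM in OE1, 102, 112 and 104 in OE2 and 1289, 1309 and 1204 in Ctrl. IFIT1 had a log2 difference of -0.59 ± 0.0540, adjusted p = 2.62e-09. OE2, the group with less PURPL, was the lowest, and the ranking above already required groups without overlap. IFIT3 was at 96.5, 96.6 and 98.2 CPM in OE1 and 67.6, 70.4 and 64.9 in OE2 (log2 difference of -0.52 ± 0.0531, adjusted p = 2.09e-08), and IFIT2 (-0.42), IFI6 (-0.48) and RSAD2 (-0.58) differed in the same direction on the log2 scale. HERC6 was lower too (log2 difference of -0.21 ± 0.0670, adjusted p = 0.0336), a call lost without library a or c of OE1 or library a of OE2 or replicate 3 of OE2 (adjusted p between 0.0861 and 0.229). The 5 members higher in OE2 were OAS1, OAS3, HERC5, IFIH1 and IFI35, that is, enzymes and sensors of double-stranded RNA among them. OAS3 was at 16.2, 16.4 and 14.6 CPM in OE1, 21.5, 23.7 and 21.3 in OE2 and 357, 371 and 356 in Ctrl. OAS3 had a log2 difference of 0.50 ± 0.0695, adjusted p = 5.20e-06, graded with PURPL. Without library b of OE2 the number higher was 2. In antigen presentation, 1 of 14 members was higher and 1 lower, together 14.3%, near the 12.4% of all tested genes. The number higher was 0 without library a of OE1 or library a or b of OE2. The lower member was B2M, the shared light chain of class I molecules (log2 difference of -0.21 ± 0.0517, adjusted p = 0.00566). IFIT2, IFIT3 and IFI6 overlap a gene on their strand.

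Genes that NF-kB switches on and inflammatory secreted factors were higher in OE2 where they differed, and all but CXCL12 of those that differed lay below Ctrl in both groups by their means. The list of NF-kB feedback genes holds genes that NF-kB switches on, of which only some restrain it. In it 5 of 15 tested members were higher in OE2 and 0 were lower (median log2 difference 0.14). All 5 (BIRC3, NFKBIA, TNFAIP3, NFKB2 and TNIP1) were graded with PURPL. Of the inflammatory secreted factors, a list that also holds TNFAIP3, 6 of 17 tested members were higher in OE2 and 0 were lower (median log2 difference 0.18): CXCL12, CCL2, CXCL1, TNFAIP3, CXCL6 and IL1B. Against these stand 6.18% of all tested genes higher in OE2 and a median of 0.0027. NFKBIA, the inhibitor that holds NF-kB in the cytoplasm, was at 9.62, 11.2 and 11.4 CPM in OE1, 14.6, 14.6 and 13.4 in OE2 and 18.9, 20.4 and 23.6 in Ctrl. NFKBIA had a log2 difference of 0.40 ± 0.104, adjusted p = 0.00834. CCL2, the monocyte chemokine, was at 66.2, 70.4 and 71.2 CPM in OE1, 103, 113 and 108 in OE2 and 182, 199 and 198 in Ctrl. CCL2 had a log2 difference of 0.64 ± 0.0560, adjusted p = 1.34e-09, without overlap between any groups. CXCL1, a neutrophil chemokine, was at 1.36, 1.17 and 1.94 CPM in OE1, 3.25, 3.47 and 2.25 in OE2 and 27.9, 31.9 and 38.0 in Ctrl. CXCL1 had a log2 difference of 0.98 ± 0.219, adjusted p = 0.00344. TNFAIP3, the ubiquitin-editing enzyme A20, was at 4.22, 2.52 and 3.64 in OE1 and 5.28, 5.23 and 4.999 in OE2 (log2 difference of 0.56 ± 0.158, adjusted p = 0.0172). CXCL8 and IL6 did not pass the test: CXCL8 was at 1.00, 0.854 and 0.870 CPM in OE1, 0.959, 1.203 and 0.533 in OE2 and 16.6, 17.7 and 18.1 in Ctrl. IL6 was at 2.43, 1.98 and 2.02 CPM in OE1, 1.60, 2.41 and 2.05 in OE2 and 14.7, 15.9 and 14.1 in Ctrl, with the 2 overexpression groups overlapping. The NF-kB calls depended on single libraries. Their number fell from 5 to 1 without library a of OE1, to 3 with the GC correction, and to 0 with replicate 3 of OE2 alone; the number of inflammatory factors fell from 6 to 3 without library a of OE2, stayed at 6 with the GC correction, and was 2 with replicate 3 alone. Single calls were lost as follows: NFKBIA without library a of OE1 (adjusted p = 0.0770), TNFAIP3 without library b of OE1 or library a of OE2 (adjusted p between 0.0561 and 0.135), BIRC3 without library a of OE1 or library b of OE2 (adjusted p between 0.0571 and 0.0605), NFKB2 without library a, b or c of OE1 or library a of OE2 or replicate 3 of OE2 (adjusted p between 0.0582 and 0.119) and IL1B without library b or c of OE1 or library a or b of OE2 (adjusted p between 0.0852 and 0.193).

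To describe the starts of these members, promoters from 250 bases before to 50 after the start of transcription were taken from RefSeq's table for GRCh38.p14. It matched 9 of the 10 genes of the 2 lists that were higher in OE2, the exception being CCL2. A 10-base NF-kB motif, GGGA, then 2 bases of any kind, then TTCC, was chosen after the values were seen and searched on both strands. In all, 4 of the 9 held it: NFKBIA, TNFAIP3, CXCL6 and CXCL1. It stood in 564 of all 35116 promoters (1.61%) and in 169 of 10738 promoters of tested genes (1.57%). The 2 lists hold genes picked as NF-kB or inflammatory genes, and their members that did not differ were not counted apart. The higher share in the 9 therefore says nothing about the difference between the groups. The 4 sequences are shown 5′ to 3′ along the gene, with the match in capitals; those of CXCL6 and CXCL1 hold 2 overlapping matches on opposite strands, so 11 letters are in capitals. The first match began 81 bases before the start in NFKBIA, 67 in TNFAIP3, 90 in CXCL6 and 79 in CXCL1. Positions are chr14:35404700-35404999, minus strand for NFKBIA, chr6:137867009-137867308, plus strand for TNFAIP3, chr4:73836428-73836727, plus strand for CXCL6 and chr4:73869143-73869442, plus strand for CXCL1.
NFKBIA: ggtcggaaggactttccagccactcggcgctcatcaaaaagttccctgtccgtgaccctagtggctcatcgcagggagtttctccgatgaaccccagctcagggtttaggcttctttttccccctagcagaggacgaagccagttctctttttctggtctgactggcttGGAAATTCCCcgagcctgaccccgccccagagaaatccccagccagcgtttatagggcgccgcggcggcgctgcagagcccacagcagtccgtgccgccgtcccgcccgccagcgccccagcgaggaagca
TNFAIP3: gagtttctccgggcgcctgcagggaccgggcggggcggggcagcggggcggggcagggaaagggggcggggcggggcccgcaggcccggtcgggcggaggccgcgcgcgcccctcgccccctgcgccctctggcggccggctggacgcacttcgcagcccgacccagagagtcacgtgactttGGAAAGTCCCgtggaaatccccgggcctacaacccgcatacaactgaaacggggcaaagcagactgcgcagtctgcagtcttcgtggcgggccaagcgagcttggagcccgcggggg
CXCL6: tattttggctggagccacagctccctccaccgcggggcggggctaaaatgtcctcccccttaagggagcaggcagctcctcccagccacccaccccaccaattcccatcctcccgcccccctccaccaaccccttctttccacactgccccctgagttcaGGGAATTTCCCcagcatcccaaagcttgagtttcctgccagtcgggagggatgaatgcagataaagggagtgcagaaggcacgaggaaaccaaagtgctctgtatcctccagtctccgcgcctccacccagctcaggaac
CXCL1: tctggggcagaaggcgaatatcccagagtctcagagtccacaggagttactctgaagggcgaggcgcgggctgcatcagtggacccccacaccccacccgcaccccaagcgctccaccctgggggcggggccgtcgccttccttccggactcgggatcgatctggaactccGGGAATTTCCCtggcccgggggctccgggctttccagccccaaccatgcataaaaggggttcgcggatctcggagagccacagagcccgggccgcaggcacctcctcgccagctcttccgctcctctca

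CXCL6 rested on few counts, at 0.215, 0.135 and 0 CPM in OE1, 0.426, 0.509 and 0.451 in OE2 and 2.49, 1.68 and 2.38 in Ctrl. A match to these letters describes the sequence and not a bound site, and the other 5 promoters (BIRC3, NFKB2, CXCL12, IL1B and TNIP1) held no match in this window. The 4 genes with a match were at log2 differences of 0.40, 0.56, 1.91 and 0.98, and the 5 without one were at 0.66, 0.24, 1.06, 0.61 and 0.19.

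Contractile and TGF-beta genes were mostly lower in OE2 where they differed. A share of 40.9% differed, against 12.4% of all tested genes. Of the list, 1 of 22 tested members was higher in OE2 and 8 were lower (median log2 difference -0.18), and its summed level was 6002 to 6153 CPM in OE1, 4881 to 5078 in OE2 and 4003 to 4285 in Ctrl. The ranges do not overlap, and with the GC correction 7 members were lower and 1 higher. CCN2, a matricellular protein made under TGF-beta and YAP, was at 803, 836 and 798 CPM in OE1, 506, 485 and 509 in OE2 and 279.5, 261 and 279 in Ctrl. CCN2 had a log2 difference of -0.70 ± 0.0499, adjusted p = 1.44e-11. ACTA2, the smooth muscle actin of myofibroblasts, was at 81.5, 76.8 and 79.4 CPM in OE1, 58.6, 59.3 and 60.7 in OE2 and 50.8, 52.9 and 46.9 in Ctrl. ACTA2 had a log2 difference of -0.41 ± 0.0577, adjusted p = 4.98e-06. TPM1, a tropomyosin, was at 1888, 1921 and 1874 in OE1 and 1372, 1474 and 1492 in OE2 (log2 difference of -0.39 ± 0.0583, adjusted p = 1.61e-05). In these 3 the overexpression groups did not overlap and OE2 lay nearer to Ctrl. TGFB2, a ligand of the pathway, was at 10.1, 9.13 and 9.10 CPM in OE1, 6.93, 5.09 and 5.49 in OE2 and 15.5, 13.8 and 13.9 in Ctrl. TGFB2 had a log2 difference of -0.70 ± 0.122, adjusted p = 1.19e-04, with OE2 the lowest of the 3 groups. TPM2 (-0.25), TAGLN (-0.22) and the receptor TGFBR1 (-0.17) were also among the lower members on the log2 scale, and SMAD6, an inhibitor of BMP signalling, was the 1 member that was higher (0.63). TGFB2 and ACTA2 overlap a gene on their strand.

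Matrix genes differed in both directions. The shares that differed were 56.8% of the elastic fibre and matrix list and 40% of the collagens, against 12.4% of all tested genes. Among elastic fibre and matrix proteins, 13 of 37 tested members were higher in OE2 and 8 were lower (median log2 difference 0.059). With the GC correction 13 were higher and 9 lower, and the median log2 difference was -0.019. The lower members were MGP, MFAP5, ELN, POSTN, LOX, LOXL2, FBN1 and SPARC. ELN, elastin itself, was at 61.8, 59.1 and 61.8 CPM in OE1, 38.5, 36.6 and 35.5 in OE2 and 59.1, 52.3 and 64.6 in Ctrl. ELN had a log2 difference of -0.73 ± 0.0684, adjusted p = 4.66e-09, with OE2 alone low. MGP, an inhibitor of calcification, was at 97.0, 96.6 and 90.9 CPM in OE1, 48.8, 52.3 and 48.4 in OE2 and 10.5, 11.8 and 8.88 in Ctrl. MGP had a log2 difference of -0.93 ± 0.0659, adjusted p = 1.34e-11. MFAP5, a microfibril protein, was at 85.5, 78.7 and 88.9 CPM in OE1, 45.9, 42.8 and 48.7 in OE2 and 43.6, 44.3 and 41.1 in Ctrl. MFAP5 had a log2 difference of -0.88 ± 0.0630, adjusted p = 1.44e-11. MGP was above Ctrl in both groups, while MFAP5 in OE2 overlapped Ctrl. The higher members included the crosslinking enzymes LOXL1 and LOXL4, TNC, MFAP4, EMILIN1, FBLN1, FBLN2, TNXB and the small proteoglycans DCN, LUM and BGN. DCN was at 2262, 2146 and 2222 CPM in OE1, 3229.6, 3123 and 3123 in OE2 and 1747, 1795 and 1495 in Ctrl. DCN had a log2 difference of 0.52 ± 0.0581, adjusted p = 1.41e-07. For DCN and for LUM (log2 difference of 0.32 ± 0.0622, adjusted p = 4.96e-04) OE2 was above both other groups. Among collagens, 6 of 25 tested members were higher in OE2 and 4 were lower (median log2 difference -0.022), all 3 chains of collagen VI (COL6A1, COL6A2 and COL6A3) being higher and the basement membrane chains COL4A1 and COL4A2 lower. COL11A1, a fibrillar collagen chain, was at 127, 125 and 132 CPM in OE1, 66.9, 69.8 and 67.2 in OE2 and 85.3, 82.2 and 86.0 in Ctrl. COL11A1 had a log2 difference of -0.92 ± 0.0529, adjusted p = 2.64e-13, above Ctrl in OE1 and below it in OE2 without overlap. COL6A1 was at 99.7, 103 and 98.9 CPM in OE1, 141, 137 and 122 in OE2 and 132, 145 and 129 in Ctrl. COL6A1 had a log2 difference of 0.41 ± 0.0584, adjusted p = 8.14e-06. COL6A3 was at 2729, 2683 and 2722 CPM in OE1 and 3314, 3299 and 3256 in OE2 (log2 difference of 0.28 ± 0.0496, adjusted p = 1.66e-04). The number of collagens lower was 1 without library c of OE1 and 7 with the GC correction. COL11A1 overlaps a gene on its strand.

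Proteases and their inhibitors were even, with 7 of 27 higher and 7 lower (51.9% in all, against 12.4% of all tested genes). With the GC correction 7 were higher and 9 lower. SERPINE2, an inhibitor of thrombin and plasminogen activators, was at 499, 474 and 504 CPM in OE1, 734, 727 and 754 in OE2 and 1273, 1344 and 1298 in Ctrl. SERPINE2 had a log2 difference of 0.58 ± 0.0498, adjusted p = 7.09e-10. SERPINF1, an inhibitor of vessel growth, was at 58.3, 44.5 and 47.9 CPM in OE1, 84.4, 93.6 and 84.2 in OE2 and 43.1, 43.6 and 36.9 in Ctrl. SERPINF1 had a log2 difference of 0.79 ± 0.0857, adjusted p = 3.02e-06. SERPINE2 was below Ctrl in both groups, and SERPINF1 above Ctrl in both and highest in OE2. The aggrecan-cleaving protease ADAMTS5 was at 51.7, 46.7 and 54.0 CPM in OE1, 32.1, 31.4 and 31.5 in OE2 and 23.5, 25.4 and 24.9 in Ctrl. ADAMTS5 had a log2 difference of -0.68 ± 0.0686, adjusted p = 1.63e-08, highest in OE1. MMP3, the stromelysin of the senescence panel, was lower in OE2 (log2 difference of -0.27 ± 0.0593, adjusted p = 0.00227), while MMP1, interstitial collagenase, was at 91.6, 90.0 and 98.7 CPM in OE1 and 97.8, 91.7 and 94.7 in OE2 and did not pass (log2 difference of 0.02 ± 0.0531, adjusted p = 0.868).

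Among secreted growth factors and their binding proteins, 13 of 29 tested members were higher in OE2 and 4 were lower (median log2 difference 0.13). Here 58.6% differed, in the Wnt list below 42.9% and in the BMP and ID list 50%, against 12.4% of all tested genes. FGF7, which acts on keratinocytes, was at 131, 137 and 140.5 CPM in OE1, 197, 206 and 215 in OE2 and 109, 100.1 and 114 in Ctrl. FGF7 had a log2 difference of 0.60 ± 0.0548, adjusted p = 3.01e-09, highest in OE2. HGF, the ligand of the receptor MET, was at 20.4, 18.7 and 20.3 CPM in OE1, 32.9, 30.4 and 34.1 in OE2 and 31.6, 32.8 and 27.4 in Ctrl. HGF had a log2 difference of 0.71 ± 0.0808, adjusted p = 1.55e-07, where OE1 alone was low. The EGF receptor ligands EREG (0.40), AREG (1.08) and NRG1 (0.27), a ligand of related receptors, were higher as well, on the log2 scale. INHBA, the activin A subunit, was at 57.5, 56.8 and 57.5 CPM in OE1, 30.3, 34.4 and 35.0 in OE2 and 37.5, 34.5 and 38.0 in Ctrl. INHBA had a log2 difference of -0.78 ± 0.0663, adjusted p = 6.27e-10. IGFBP3, a carrier of insulin-like growth factors, was at 1914, 1849 and 1872 CPM in OE1, 1360.3, 1419.8 and 1378 in OE2 and 1667, 1744 and 1564 in Ctrl. IGFBP3 had a log2 difference of -0.44 ± 0.0517, adjusted p = 2.95e-07. Both were highest in OE1. In the Wnt list, 7 of 21 tested members were higher in OE2 and 2 were lower (median log2 difference 0.09): the extracellular inhibitors SFRP1 and DKK1 were higher, and SFRP4 and the receptor ROR2 lower. SFRP1 was at 409, 451 and 442 CPM in OE1, 566, 578 and 601 in OE2 and 611, 581 and 650.4 in Ctrl. SFRP1 had a log2 difference of 0.42 ± 0.0537, adjusted p = 1.08e-06. DKK1 was at 171, 157 and 161 CPM in OE1, 207, 203 and 184 in OE2 and 298, 316 and 279 in Ctrl (log2 difference of 0.28 ± 0.0564, adjusted p = 8.19e-04); OE1 was the lowest group for both. SFRP4 was at 4.58, 5.75 and 5.10 CPM in OE1 and 2.56, 2.92 and 3.03 in OE2 (log2 difference of -0.85 ± 0.173, adjusted p = 9.03e-04). In the BMP and ID list, 5 of 16 tested members were higher in OE2 and 3 were lower (median log2 difference 0.083). BMP4, a ligand, was at 43.0, 47.6 and 50.2 CPM in OE1, 68.9, 67.5 and 59.7 in OE2 and 41.2, 41.2 and 42.8 in Ctrl. BMP4 had a log2 difference of 0.48 ± 0.0662, adjusted p = 4.34e-06. GREM1, an antagonist of BMP ligands, was lower (-0.57 on the log2 scale). All 3 lower members, GREM1, FST and GDF6, missed the threshold without library a of OE1. SFRP1 and ROR2 overlap a gene on their strand.

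Of the oxidative stress genes, many of them targets of the factor NRF2, 11 of 24 tested members were higher in OE2 and 2 were lower (median log2 difference 0.14). Together that is 54.2%, against 12.4% of all tested genes. AKR1C1, which reduces steroids and lipid aldehydes, was at 19.7, 19.5 and 19.9 CPM in OE1, 47.8, 53.4 and 47.3 in OE2 and 30.6, 38.8 and 30.6 in Ctrl. AKR1C1 had a log2 difference of 1.33 ± 0.0833, adjusted p = 2.21e-12. AKR1C3 was at 5.19, 3.15 and 4.63 CPM in OE1, 16.5, 15.5 and 12.7 in OE2 and 3.70, 4.26 and 4.34 in Ctrl. AKR1C3 had a log2 difference of 1.76 ± 0.142, adjusted p = 3.30e-10. OE2 was the highest group for both, and AKR1C1 was below Ctrl in OE1. AKR1C1, AKR1C2 and AKR1C3 are near-identical copies whose reads the counting could have split, so their separate values are uncertain. AKR1B1, of the same superfamily, was at 209.8, 210.3 and 213 CPM in OE1, 356, 334 and 301 in OE2 and 393, 399 and 460.2 in Ctrl. AKR1B1 had a log2 difference of 0.65 ± 0.0614, adjusted p = 1.15e-08. SOD2, the mitochondrial superoxide dismutase and also an NF-kB target, was at 175, 166 and 162 CPM in OE1, 231, 216 and 243 in OE2 and 644, 609 and 663 in Ctrl. SOD2 had a log2 difference of 0.46 ± 0.0543, adjusted p = 3.19e-07. NQO1 (0.42) and GCLM (0.18) were higher and SLC7A11 (-0.40) and TXNRD1 (-0.16) lower on the log2 scale. The number lower was 1 without any 1 of the OE1 libraries, library a of OE2 or replicate 3 of OE2. The number higher was 7 without library b of OE1 or library a of OE2, and the GC correction left 9 higher and 4 lower. Among the genes lower in OE2 with the smallest p were RDH10, ALDH1A1 and OXTR. RDH10, which oxidises retinol, was at 196, 194 and 186 CPM in OE1, 99.6, 102 and 109.6 in OE2 and 92.3, 91.8 and 89.2 in Ctrl. RDH10 had a log2 difference of -0.89 ± 0.0518, adjusted p = 2.88e-13. ALDH1A1, which oxidises retinal, was at 769, 802 and 810.3 CPM in OE1, 439, 464 and 449 in OE2 and 543, 531 and 527 in Ctrl. ALDH1A1 had a log2 difference of -0.82 ± 0.0492, adjusted p = 5.16e-13. OXTR, the oxytocin receptor, was at 786, 788 and 826 CPM in OE1, 449.5, 455 and 482 in OE2 and 478, 479.6 and 434 in Ctrl. OXTR had a log2 difference of -0.79 ± 0.0525, adjusted p = 3.54e-12, raised in OE1 alone.

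Of the p53 targets, 5 of 29 tested members were higher in OE2 and 1 was lower (median log2 difference 0.085): XPC, CMBL, PPM1D, SPATA18 and EDA2R were higher and MDM2, the main inhibitor of p53, lower (log2 difference of -0.18 ± 0.0506, adjusted p = 0.0183). The MDM2 call was lost without library a or b of OE1, without library a or b of OE2, and with replicate 3 of OE2 alone. XPC, a DNA repair factor, was at 151, 161 and 160.3 CPM in OE1, 207, 227 and 211 in OE2 and 187, 178 and 184 in Ctrl. XPC had a log2 difference of 0.45 ± 0.0515, adjusted p = 2.06e-07. CDKN1A, the p21 inhibitor of the cell cycle, was at 78.4, 65.9 and 65.4 CPM in OE1, 69.8, 67.9 and 62.4 in OE2 and 78.7, 81.0 and 73.7 in Ctrl. CDKN1A had a log2 difference of -0.071 ± 0.0667, adjusted p = 0.562. CDKN2A, the p16 locus, was at 10.3, 12.004 and 8.62 CPM in OE1, 7.84, 9.16 and 11.1 in OE2 and 10.8, 10.9 and 9.91 in Ctrl. CDKN2A had a log2 difference of -0.13 ± 0.126, adjusted p = 0.594. Neither CDKN1A nor CDKN2A passed, and the overexpression groups overlapped in both. The p53 list had 20.7% of tested members differing and the senescence panel 29.2%, against 12.4% of all tested genes. In the senescence panel, 4 of 24 tested members were higher in OE2 and 3 were lower (median log2 difference 0.018): CCL2, PLAU, TIMP1 and IL1B were higher, and the lower members included IGFBP3 and MMP3. LMNB1 (log2 difference of 0.061 ± 0.109, adjusted p = 0.794) and MKI67 (log2 difference of 0.07 ± 0.0668, adjusted p = 0.574), whose loss marks arrested cells, did not pass between the groups. The number of panel members higher was 1 without library a or b of OE2; PLAU was lost without library a of OE1 or library a or b of OE2 (adjusted p between 0.0755 and 0.0925), TIMP1 without library b of OE1 or library a or b of OE2 (adjusted p between 0.0783 and 0.137), and PPM1D of the p53 list without library a of OE1 or library a of OE2 (adjusted p between 0.0539 and 0.0707).

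Of the genes active in dividing cells, 11.8% of the replication list and 15.2% of the mitosis list differed, near the 12.4% of all tested genes. The few replication members that differed were higher in OE2 and the few mitosis members lower. In the replication list 4 of 34 tested members were higher in OE2 and 0 were lower (median log2 difference 0.091), and in the mitosis list 0 of 33 tested members were higher in OE2 and 5 were lower (median log2 difference -0.063). RRM2, part of ribonucleotide reductase, was at 36.7, 35.5 and 37.2 CPM in OE1, 47.9, 45.3 and 49.9 in OE2 and 89.9, 88.0 and 98.2 in Ctrl. RRM2 had a log2 difference of 0.39 ± 0.0628, adjusted p = 5.18e-05. The replicative helicase subunit MCM7 was at 22.4, 20.1 and 23.0 CPM in OE1 and 26.2, 28.7 and 27.5 in OE2 (log2 difference of 0.33 ± 0.0748, adjusted p = 0.00298), MCM3 was higher too (log2 difference of 0.28 ± 0.0660, adjusted p = 0.00423), and the fourth was UHRF1. DLGAP5, a spindle protein, was at 38.4, 38.6 and 42.6 CPM in OE1, 32.8, 31.8 and 32.1 in OE2 and 88.4, 84.4 and 86.6 in Ctrl. DLGAP5 had a log2 difference of -0.31 ± 0.0630, adjusted p = 9.73e-04. ANLN, of the cleavage furrow, was at 164, 159.6 and 166 CPM in OE1, 132, 139 and 141 in OE2 and 309.9, 295 and 325 in Ctrl. ANLN had a log2 difference of -0.25 ± 0.0518, adjusted p = 0.00124. Both lists were below Ctrl in both groups, with summed levels of 656 to 677 and 719 to 744 CPM for replication, against 1123 to 1158 in Ctrl, and 1004 to 1032 and 910.3 to 981 for mitosis, against 2293 to 2349. In bulk RNA, fewer dividing cells and less of these transcripts per cell cannot be told apart. The mitosis calls were 2 without library a of OE1 or library a of OE2, 3 with the GC correction and 1 with replicate 3 of OE2 alone. UHRF1 was lost without library a or b of OE1 or library a or b of OE2 or replicate 3 of OE2 (adjusted p between 0.0571 and 0.201), CENPE without library a or b of OE1 or library a or b of OE2 (adjusted p between 0.0585 and 0.202), CENPF without library a or c of OE1 or library a of OE2 (adjusted p between 0.0720 and 0.104) and MCM3 without library c of OE1 (adjusted p = 0.0523).

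Immediate early genes and the feedback genes of ERK signalling were higher in OE2 where they differed: 7 of 28 tested members were higher in OE2 and 0 were lower (median log2 difference 0.16). The zinc finger factor EGR1 was at 15.1, 16.5 and 16.7 CPM in OE1, 24.9, 23.3 and 23.7 in OE2 and 32.0, 32.1 and 34.3 in Ctrl. EGR1 had a log2 difference of 0.58 ± 0.0803, adjusted p = 4.86e-06. KLF4, another zinc finger factor, was at 14.3, 15.2 and 15.2 CPM in OE1, 22.0, 23.5 and 24.7 in OE2 and 33.6, 33.6 and 36.2 in Ctrl. KLF4 had a log2 difference of 0.66 ± 0.0814, adjusted p = 6.93e-07, and both genes were graded with PURPL, below Ctrl. DUSP6, the phosphatase that turns ERK off, was higher (log2 difference of 0.27 ± 0.0711, adjusted p = 0.0106), and SPRY1, an inhibitor of receptor signalling, was highest in OE2 (log2 difference of 0.61 ± 0.0997, adjusted p = 5.25e-05). With the GC correction 6 members stayed past the threshold. In glycolysis and hypoxia, 5 of 23 tested members were higher in OE2 and 0 were lower (median log2 difference 0.083), led by PFKFB3, an activator of glycolysis, at 23.8, 23.4 and 22.7 CPM in OE1, 40.7, 34.5 and 36.1 in OE2 and 24.6, 21.4 and 21.9 in Ctrl. PFKFB3 had a log2 difference of 0.67 ± 0.0785, adjusted p = 2.76e-07. SLC2A1, the glucose transporter GLUT1, was higher as well (log2 difference of 0.27 ± 0.0568, adjusted p = 0.00124); the list stood at 3 with the GC correction and at 3 without any 1 of the OE1 libraries or without library a or b of OE2. ADM was lost without library a, b or c of OE1 or library a or b of OE2 (adjusted p between 0.0698 and 0.125). In sterol and fatty acid synthesis, 5 of 26 tested members were higher in OE2 and 2 were lower (median log2 difference 0.12). HMGCS1, an early enzyme of cholesterol synthesis, was lower (log2 difference of -0.24 ± 0.0581, adjusted p = 0.00476). The number higher there was 3 without any 1 of the OE1 libraries or without library a of OE2, and the number lower was 1 without any 1 of the OE1 or OE2 libraries or replicate 1 of Ctrl. Of lysosomal genes, 6 of 23 tested members were higher in OE2 and 1 was lower (median log2 difference 0.065), with CTSK, a collagen-cleaving cathepsin, at 318, 303 and 323 CPM in OE1, 382, 384 and 377 in OE2 and 551, 562 and 539 in Ctrl. The number of lysosomal genes lower was 0 without any 1 of the OE1 libraries or library a or b of OE2. CTSK had a log2 difference of 0.28 ± 0.0489, adjusted p = 1.66e-04. Amino acid and ER stress genes split, 2 of 23 being higher and 4 lower: the folding factors PDIA4 and CALR were higher and PSAT1, of serine synthesis, lower (log2 difference of -0.33 ± 0.0533, adjusted p = 4.10e-05). Of heat shock genes, 2 of 12 tested members were higher in OE2 and 0 were lower (median log2 difference 0.093), namely HSPA8 and DNAJA1. That is 16.7%, near the 12.4% of all tested genes that differed. The shares of the other lists here were 25% (immediate early and ERK feedback), 21.7% (glycolysis and hypoxia) and 26.9% (sterol and fatty acid synthesis). They were 30.4% for lysosomal genes and 26.1% for amino acid and ER stress.

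Ribosomal protein genes were higher in OE2 where they differed: 8 of 34 tested members were higher in OE2 and 0 were lower (median log2 difference 0.13), all farther from Ctrl in OE2. The shares that differed were 23.5% here and 33.3% of the histone list below, against 12.4% of all tested genes. RPS9, of the small subunit, was at 65.1, 63.2 and 62.1 CPM in OE1, 83.5, 95.3 and 77.9 in OE2 and 48.9, 55.9 and 55.9 in Ctrl. RPS9 had a log2 difference of 0.43 ± 0.0669, adjusted p = 3.20e-05. RPS6 was at 898, 836 and 887 CPM in OE1, 995, 1135 and 945 in OE2 and 678, 731 and 682 in Ctrl. RPS6 had a log2 difference of 0.23 ± 0.0586, adjusted p = 0.00796. In replicate 3 of OE2 both stood below libraries a and b. The count fell to 1 without library b of OE2, reached 14 without 1 other library, and was 7 with the GC correction and 1 with replicate 3 alone. RPS6 was lost without library b of OE1 or library b of OE2 (adjusted p between 0.0669 and 0.0843). Ribosomal protein genes have many processed copies, so their counts depend on how reads with several placements were handled. The 13 mitochondrially encoded genes had a median log2 difference of 0.0023. Of 12 histone genes, 4 were higher, H4C8, H2BC5 and H2AC6 among them. Histone genes have near-identical copies, so their counts are uncertain. H4C8 was at 16.5, 14.97 and 15.6 CPM in OE1, 25.2, 26.0 and 24.4 in OE2 and 18.4, 17.7 and 19.2 in Ctrl. H4C8 had a log2 difference of 0.68 ± 0.0828, adjusted p = 5.09e-07. The libraries were selected for poly(A), which most replication-dependent histone messages lack. H2AC6 was lost without library b or c of OE1 (adjusted p between 0.0617 and 0.0710), and the number higher was 2 without library c of OE1.

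Genes of positional identity differed in both directions: 5 of 20 tested members were higher in OE2 and 2 were lower (median log2 difference -0.036). Of this list 35% differed, against 12.4% of all tested genes. The shares of the lists below were 37% (axon guidance), 50% (integrins and laminins) and 42.1% (potassium channels). HOXD10 was at 22.7, 24.2 and 22.9 CPM in OE1, 13.6, 11.7 and 12.7 in OE2 and 14.3, 14.7 and 16.1 in Ctrl. HOXD10 had a log2 difference of -0.87 ± 0.0907, adjusted p = 3.06e-08. HOXD3 was at 5.33, 4.86 and 3.24 CPM in OE1, 1.60, 1.16 and 1.88 in OE2 and 3.001, 2.15 and 2.22 in Ctrl. HOXD3 had a log2 difference of -1.52 ± 0.221, adjusted p = 1.06e-05, and both genes are of the HOXD cluster, which marks position along the limbs and trunk. Both were above Ctrl in OE1 and below it in OE2, and both overlap a gene on their strand. MSX2 was higher (log2 difference of 1.00 ± 0.235, adjusted p = 0.00365), as were TWIST1, PRRX1, TBX5 and HOXC10; without library a of OE1 the number higher was 2, and TWIST1 was lost without library c of OE1 or library a of OE2 (adjusted p between 0.0514 and 0.0569) and with the GC correction (log2 difference 0.17, adjusted p = 0.0569). In axon guidance, 7 of 27 tested members were higher in OE2 and 3 were lower (median log2 difference 0.11). With the GC correction 5 were higher and 4 lower. NTN4, a netrin of basement membranes, was at 504, 470.0 and 495 CPM in OE1, 342, 353 and 351 in OE2 and 325, 330.2 and 301 in Ctrl. NTN4 had a log2 difference of -0.49 ± 0.0510, adjusted p = 3.14e-08. PLXNC1, a semaphorin receptor, was at 33.3, 32.2 and 32.6 CPM in OE1, 45.3, 43.7 and 42.2 in OE2 and 43.3, 45.9 and 38.4 in Ctrl (log2 difference of 0.42 ± 0.0691, adjusted p = 6.65e-05); the number higher was 3 without library a of OE2. Integrins and laminins were even at 6 higher and 6 lower of 24. ITGA2, of a collagen receptor, was at 70.1, 68.7 and 69.7 CPM in OE1, 105, 97.5 and 105 in OE2 and 168, 175 and 154 in Ctrl. ITGA2 had a log2 difference of 0.56 ± 0.0561, adjusted p = 1.65e-08. ITGA4, of a fibronectin receptor, was at 449, 439 and 431 CPM in OE1, 303, 299 and 320.0 in OE2 and 321, 304 and 352 in Ctrl. ITGA4 had a log2 difference of -0.52 ± 0.0538, adjusted p = 3.43e-08. The number of integrins and laminins higher was 3 without library b of OE1 or either library a or b of OE2. Of potassium channel genes 3 of 19 tested members were higher in OE2 and 5 were lower (median log2 difference -0.10), with KCNQ5 at 13.6, 15.6 and 13.96 CPM in OE1, 7.52, 9.49 and 11.1 in OE2 and 30.6, 31.5 and 32.0 in Ctrl. KCNQ5 had a log2 difference of -0.60 ± 0.108, adjusted p = 1.91e-04. KCNK2, a stretch-gated channel, was at 56.9, 58.5 and 59.1 CPM in OE1, 68.9, 72.8 and 73.1 in OE2 and 113, 100.4 and 113 in Ctrl (log2 difference of 0.30 ± 0.0584, adjusted p = 5.30e-04). Without library a of OE1 the number lower was 2.

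Fibroblast identity genes were high in all groups, and 7 of 16 tested members were higher in OE2 and 0 were lower (median log2 difference 0.14): DCN, FBLN1, COL6A3, LUM, PDGFRA, PRRX1 and PDGFRB. That is 43.8% of the list, against 12.4% of all tested genes that differed. The summed level was 33075 to 34303 CPM in OE1, 36128 to 37505 in OE2 and 29786 to 30189 in Ctrl, and with the GC correction 6 members were higher and 1 lower. Keratinocyte markers summed to 319 to 334 CPM in OE1 and 288 to 330.0 in OE2, and immune markers to 0.0791 to 0.537 and 0.231 to 0.373. In these lists 9 of 14 listed keratinocyte markers and 9 of 10 immune markers had too few counts to be tested. The keratinocyte sum is mostly PERP, with 58451 counts over the 9 libraries, against 1464 for KRT10, the next highest, 1 for KRT14 and 0 for KRT5, KRT1 and LORICRIN. Endothelial markers summed to 2.79 to 5.80 CPM in OE1 and 2.72 to 6.66 in OE2, with CDH5 at 1 count in 9 libraries. PECAM1 was at 0.179, 0.135 and 0.119 CPM against 0.586, 0.463 and 0.410 (log2 difference of 1.69 ± 0.556, adjusted p = 0.0427). TEK was at 1.54, 2.29 and 2.33 against 1.07, 1.39 and 1.07 (log2 difference of -0.80 ± 0.241, adjusted p = 0.0265). PECAM1 was lost without library a, b or c of OE1 or library a or b of OE2 or replicate 1 or 2 of Ctrl or replicate 3 of OE2 (adjusted p between 0.0544 and 0.145) and TEK without library b or c of OE1 or library a of OE2 or replicate 3 of OE2 (adjusted p between 0.0800 and 0.121). TYRP1, a melanocyte enzyme, had 0.746, 0.463 and 0.533 CPM in OE2 and 0, 0.0450 and 0 in OE1, where it rested on 1 count, while the other defining melanocyte genes MLANA, TYR and SOX10 were too low to be tested. The 3 tested melanocyte and Schwann markers summed to 70.4 to 77.7 CPM in OE1, 72.98 to 74.98 in OE2 and 51.8 to 55.6 in Ctrl, nearly all from members other than TYRP1. Of pericyte and muscle markers CSPG4 was higher (log2 difference of 0.42 ± 0.11001, adjusted p = 0.00887) and KCNJ8 lower (log2 difference of -0.40 ± 0.117, adjusted p = 0.0222), CSPG4 being lost without library a of OE2 (adjusted p = 0.0778) and KCNJ8 without library a or c of OE1 or library a of OE2 or replicate 3 of OE2 (adjusted p between 0.0746 and 0.0921). The part of other cell types in the differences between the groups was not tested.

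**Figure D5:**
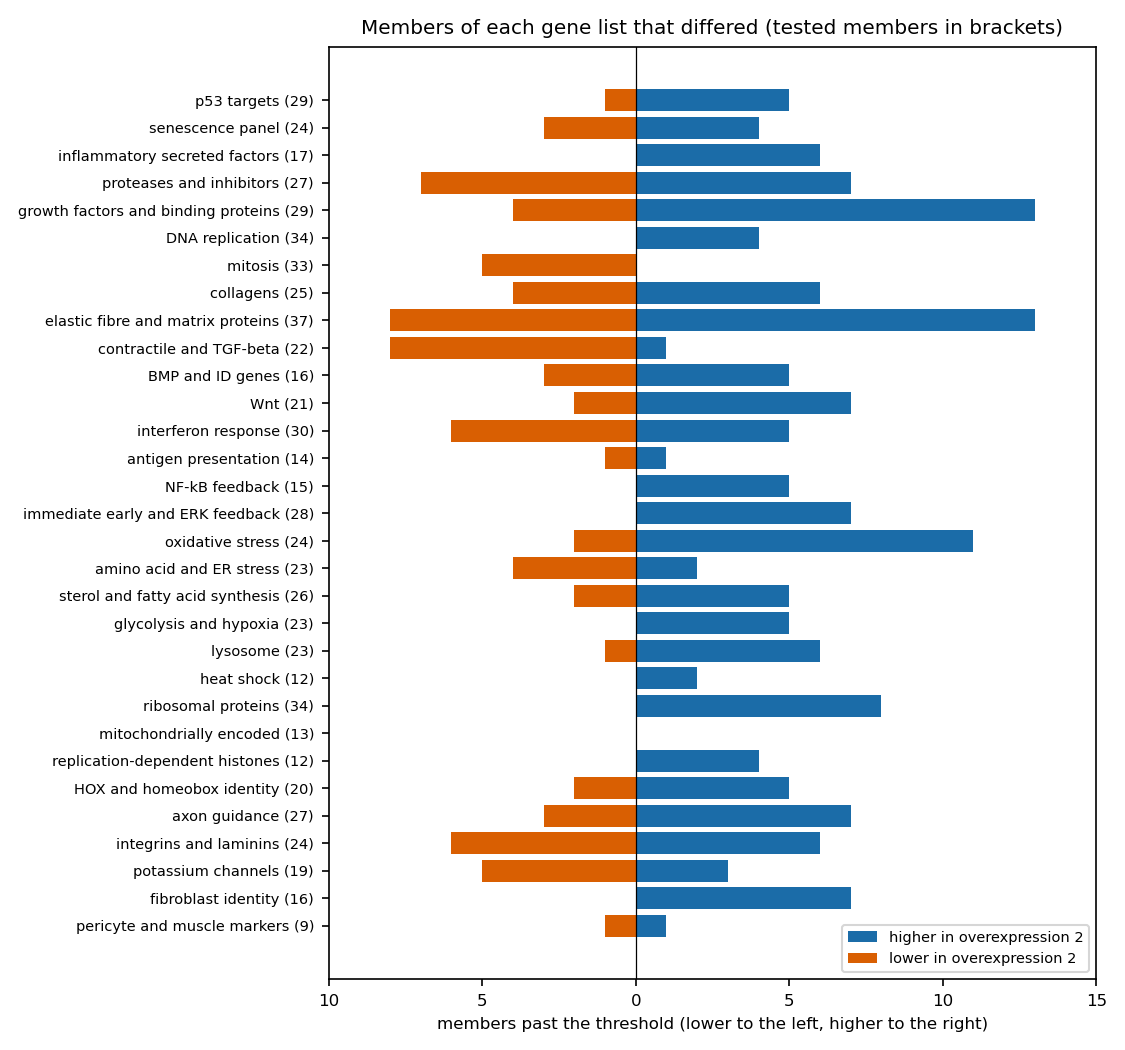
Number of members of 31 gene lists (tested members in brackets; 4 lists of markers of other cells are left out) that passed the threshold, higher in OE2 to the right and lower to the left. Contractile and TGF-beta genes (8 lower, 1 higher) and mitosis (5 lower) lean to the left, while growth factors (13 higher, 4 lower), oxidative stress (11 and 2), ribosomal proteins (8 and 0) and fibroblast identity (7 and 0) lean to the right.

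The knockdown libraries share no library with this comparison, and PURPL was lower there with both guides and lower in OE2 than in OE1 here. PURPL was at 80.8 ± 12.02 CPM in sgCtrl, 15.7 ± 1.94 with guide 1 and 19.5 ± 1.83 with guide 2 (mean ± SD, n = 3), log2 differences of -2.36 (adjusted p = 2.48e-15) and -2.06 (adjusted p = 2.25e-14). Of all 13923 genes tested there, 24.5% passed with guide 1 and 24.4% with guide 2. Across the 13638 genes tested in both tables, guide 1 raised 11.6% and lowered 13.1%, and guide 2 raised 11.9% and lowered 12.6%. Of the 889 of these genes that were higher in OE2, guide 1 raised 223 (25.1%) and lowered 155 (17.4%), and guide 2 raised 169 (19%) and lowered 209 (23.5%). Of the 905 that were lower in OE2, guide 1 raised 171 (18.9%) and lowered 234 (25.9%), and guide 2 raised 237 (26.2%) and lowered 142 (15.7%). The guides share the sgCtrl libraries, and the difference between them was not tested. Single genes below were chosen after their values were seen. ALDH1A1, lower in OE2, had log2 differences of 1.26 (adjusted p = 1.65e-16) with guide 1 and 2.90 (adjusted p = 2.10e-25) with guide 2, ELN 2.30 (adjusted p = 8.08e-22) and 2.92 (adjusted p = 5.64e-25), and COL11A1 0.76 (adjusted p = 5.13e-10) and 1.30 (adjusted p = 5.00e-15). These 3 were higher with both guides. C3, higher in OE2 though below Ctrl in both groups, had 1.62 (adjusted p = 4.99e-12) and 1.21 (adjusted p = 5.51e-09), GRIA1 had -1.39 (adjusted p = 6.59e-08) and -1.35 (adjusted p = 1.22e-07), and LBH 0.076 (adjusted p = 0.404) and 0.44 (adjusted p = 1.70e-06).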

How the data were processed

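Poly(A)-selected RNA of BJ cells was sequenced from random-primed, adaptor-ligated cDNA after 18 cycles of PCR, per the labels' protocols; no molecular identifiers are described. The authors deposited raw read counts per gene (61544 genes), as whole numbers without normalization. HISAT2 2.1.0, featureCounts 2.0.1, cutadapt 3.3, FastQC 0.11.9, SAMtools 1.11 and DESeq2 1.34.0 appear in the submitters' processing notes, with builds hg38 and GRCh38.p13. The strand setting, the annotation release and the treatment of shared reads were not given in the sources used here. For that reason genes that overlap another on their strand (42 of the 166 named genes) have uncertain counts, and a gene cannot be told apart from an antisense partner.

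From the deposited counts, edgeR 4.0.16 (R 4.3.3) was fitted to the 9 libraries of the overexpression table, 18858976 to 27985649 counts each, with filterByExpr (minimum count 10, minimum total 15), TMM, robust quasi-likelihood tests, 6 residual degrees of freedom and Benjamini-Hochberg adjustment over 15267 genes at 0.05. The standard error is the log2 difference over the square root of F. The knockdown table, 11444513 to 12896040 counts per library, was fitted separately. GC content is that of the longest GENCODE transcript, found for 14974 genes (98.1%); the correction is a loess fit (span 0.5) per library, added after seeing the data.

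Named genes are PURPL; the 12 largest differences and the 6 smallest p in each direction among genes with non-overlapping groups, a mean of at least 2 CPM and a symbol; up to 4 differing members with the smallest p of each of 35 lists; the senescence panel; and the 5 smallest p in each direction for departure from the PURPL ratio. Some named genes are not reported here. Other list members are named as members only or were chosen after their values were seen. The groups, lists and rules were chosen with earlier results of these data known. Alternatives were DESeq2 1.42.0, other scalings, filters, thinning, a minimum fold of 1.2, leaving out each library and dropping overlapping genes.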

Additional observations from a re-analysis of the deposited data

Results flagged for a closer look

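Of the 166 named genes, 13 differed from Ctrl past the threshold in opposite directions in the 2 overexpression groups, and the difference between the groups itself passed the edgeR test for each. The values are the log2 difference of OE2 minus OE1, with each group's log2 difference from the shared Ctrl libraries in brackets. Higher in OE2 were ADAM22 at 1.53 (-0.43 in OE1 and 1.10 in OE2), AKR1C1 at 1.33 (-0.76 in OE1 and 0.57 in OE2) and H4C8 at 0.68 (-0.23 in OE1 and 0.45 in OE2). The same direction was seen for IL1R1 at 0.83 (-0.28 in OE1 and 0.55 in OE2) and XPC at 0.45 (-0.21 in OE1 and 0.23 in OE2). Lower in OE2 were AKAP6 at -1.47 (1.201 in OE1 and -0.26 in OE2), ALDH1A1 at -0.82 (0.57 in OE1 and -0.24 in OE2) and COL11A1 at -0.92 (0.60 in OE1 and -0.31 in OE2). Also lower were HOXD10 at -0.87 (0.63 in OE1 and -0.24 in OE2), HOXD3 at -1.52 (0.86 in OE1 and -0.67 in OE2) and IGFBP3 at -0.44 (0.18 in OE1 and -0.26 in OE2). The last were INA at -1.38 (0.30 in OE1 and -1.08 in OE2) and ITGA6 at -0.43 (0.16 in OE1 and -0.26 in OE2). For all 13 the libraries of the 2 overexpression groups did not overlap, which several of the rules for named genes already required. AKAP6, COL11A1, HOXD3 and HOXD10 overlap a gene on their strand, and AKR1C1 has near-identical copies.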

How the results depend on the processing

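No paired analysis was possible because the columns of OE1 carry no replicate number. The count of genes that differ (1888) lay between 1760 with DESeq2 and 2006 with the 6 overexpression libraries alone under other count models, scalings, filters and thinning, and no named gene changed sign past the threshold. Against a minimum of 1.2-fold, 399 genes remained past the threshold (180 higher, 219 lower), of which 135 were graded, 172 on either side of Ctrl and 92 farther in OE2, with 62 of 682 list members. Of the 166 named genes, 71 lost their call against that minimum, and 20 lost it without library a of OE1. Without genes that overlap another on their strand, fewer genes were tested (10317): 1145 passed (578 higher, 567 lower), 418 graded, 375 on either side and 352 farther, with 1832 departures from the PURPL ratio. With replicate 3 of OE2 alone, 753 passed (367 higher, 386 lower), with 109 list members; fewer libraries were compared. Leaving out 1 library at a time gave 1259 to 2045 genes that differ, 600 to 1052 higher and 659 to 1021 lower, 2107 to 3017 departures, 472 to 736 graded, 416 to 741 on either side, 371 to 646 farther, and 163 to 230 list members (main count 223). Genes with few counts, such as CXCL6, PECAM1 and TYRP1, have wide errors, and PCR copies count as separate reads.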

Other observations

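Of 2383 long noncoding RNAs tested, 38 were higher in OE2 and 116 lower, against 895 and 811 of 12311 protein-coding genes. Their median log2 difference was -0.067 against 0.0095, and with the GC correction 41 were higher and 113 lower. They have fewer counts than coding genes, and 6.46% of them passed against 13.9%.

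In 3 transcripts, singled out after their values were seen, 1 overexpression group had counts and the other none. The processed pseudogene ENSG00000250611 (chr4:20037560-20037972, minus strand) had 48, 37 and 57 counts in OE2 and 0 in all 3 libraries of OE1 and of Ctrl, at least 55-fold higher against a floor of 3 counts over the group (adjusted p = 8.01e-09, edgeR). The noncoding RNA ENSG00000257522 (chr14:29210986-29392048, minus strand) had 55, 35 and 36 counts in OE1, 1, 2 and 1 in Ctrl and 0 in OE2, at least 36.1-fold lower there (adjusted p = 2.34e-08, edgeR). OR52N2, an olfactory receptor gene, had 12, 11 and 18 counts in OE2 and 0 in OE1, at least 15.9-fold higher. ENSG00000243620, also singled out after its values were seen, had counts in both groups, at 15.9, 17.3 and 19.3 CPM in OE2 and 0.680, 0.405 and 0.593 in OE1, with Ctrl at 0.663, 0.430 and 0.207.

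By chromosome, 19 held 56 genes higher in OE2 and 9 lower of 941 tested, and 33 and 21 with the GC correction. Chromosome 13 held 10 higher and 29 lower of 291, and 15 and 27 with the correction. No chromosome from 1 to 22 or X had a median log2 difference outside -0.0324 to 0.0614.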
